A study of Homo sapiens with 24 samples.

Results

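The Wnt ligands, their receptors and their secreted antagonists were followed after knockdown of FAM167A (also called DIORA1) in human neuroblastoma cells. Members were the protein-coding genes of the SK-N-SH CRISPRi count table named WNT, FZD, SFRP or DKK with a number, LGR4 to LGR6, RSPO1 to RSPO4, AXIN2 and LEF1, matched by Ensembl identifier to the other tables. This gave 46 of the 61541 genes in that table: 19 WNT ligands, 10 Frizzled receptors, 4 R-spondins, 3 R-spondin receptors, 8 secreted antagonists, and AXIN2 and LEF1. RNA was sequenced in 24 libraries from the established neuroblastoma lines SK-N-AS and SK-N-SH, in 3 experiments with their own controls. In the first, SK-N-SH cells received a pool of siRNAs against FAM167A (5 libraries) or a non-targeting siRNA (5 libraries). In the second, SK-N-SH cells carried SpCas9 fused to the KRAB repressor, which silences a promoter to which a guide RNA leads it (CRISPR interference, CRISPRi), with the guide sgDIORA1 (3 libraries) or the control guide sgGal4 (3 libraries). The third used the same guides and repressor in SK-N-AS (4 libraries each). The controls of the CRISPRi experiments therefore carried the repressor and a guide as well. The labels do not say whether replicates came from separate cultures, whether a CRISPRi line was a clone, or how long after treatment RNA was taken, so the p-values measure only the spread between these libraries, which may be technical.

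Wnt proteins are lipid-modified secreted ligands that bind Frizzled receptors. With the co-receptors LRP5 and LRP6 they keep beta-catenin from being degraded, and beta-catenin then acts with TCF and LEF factors on target genes such as AXIN2, while ligands such as WNT5A also act without beta-catenin, on cell polarity and movement. R-spondins, bound by LGR4, LGR5 and LGR6, raise the amount of Frizzled at the cell surface, DKK proteins block LRP5 and LRP6 (DKK3 is a divergent member of that family), and SFRP proteins bind the ligands themselves. In the neural crest, from which the sympathetic lineage of neuroblastoma arises, Wnt signals take part in induction and migration.

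The stretch before the start site is shown for RSPO4, one of the members that moved in opposite directions in the CRISPRi experiments, and for DKK1, the one member whose window held a TCF/LEF motif. Both are the 250 bases upstream of the RefSeq start (GRCh38.p14), written 5′ to 3′ on the strand of the gene, with the TCF/LEF motif and a TATA box in capitals.
RSPO4, chr20:1002312-1002561, minus strand: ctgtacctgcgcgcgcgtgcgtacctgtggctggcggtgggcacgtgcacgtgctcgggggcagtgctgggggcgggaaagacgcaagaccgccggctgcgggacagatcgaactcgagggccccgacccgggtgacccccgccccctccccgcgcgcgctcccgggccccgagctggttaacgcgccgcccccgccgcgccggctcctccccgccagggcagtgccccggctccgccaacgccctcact
DKK1, chr10:52314031-52314280, plus strand: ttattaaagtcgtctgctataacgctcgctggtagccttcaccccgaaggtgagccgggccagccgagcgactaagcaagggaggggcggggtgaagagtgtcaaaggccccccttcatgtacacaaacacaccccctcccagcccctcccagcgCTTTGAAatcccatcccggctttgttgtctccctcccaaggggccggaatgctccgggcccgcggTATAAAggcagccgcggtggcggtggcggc

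RefSeq windows of 300 bases (250 before and 50 after a start) were at hand for 31 of the 46 members. The TCF/LEF letters CTTTGAT or CTTTGAA, searched on both strands, were found in 2409 of 35116 windows of all genes (6.86%) and in 1 member, DKK1, where the match began 95 bases before the start. The TATA box letters TATAAA, searched on both strands at any position, stood in 11.5% of all windows and in DKK1, FZD8 and WNT5B. They began 30 and 29 bases before the start in DKK1 and FZD8, on the strand of the gene. In WNT5B they lay on the opposite strand, 78 bases before the start. The TEAD letters CATTCCA or CATTCCT stood in 8.65% of all windows and in 1 member, WNT16, within the first 50 transcribed bases. The RSPO4 window held none of these letters. It had 46 CpG dinucleotides and that of DKK1 had 20, against a median of 26.5 over the members' 36 windows and of 14 over all windows.

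The targeted gene was lower in every knockdown library than in any control of its experiment. FAM167A fell from 188 ± 12.5 to 65.2 ± 5.13 CPM (read counts scaled to the library total with TMM factors, mean ± SD) with siRNA, to 3.22 ± 0.588 from 242 ± 12.7 with CRISPRi in SK-N-SH, and to 10.2 ± 0.739 from 95.1 ± 3.56 with CRISPRi in SK-N-AS. Libraries held 71464698 to 90255175 reads in the siRNA experiment, 11690515 to 21628076 in SK-N-SH CRISPRi and 29985858 to 104455853 in SK-N-AS CRISPRi. Among counts from 1 to 20, 89.6% were even in SK-N-AS, against 39% in SK-N-SH CRISPRi and 60.6% with siRNA. No replicates were close enough to be 1 library deposited more than once. In the siRNA experiment knockdown libraries 3 and 4 stood apart from the others of their group, and control library 5 from its own, so the siRNA calls of the members are also given without them. Over all tested genes, 27.7% rose and 28% fell in SK-N-SH CRISPRi, 15.2% and 15.5% in SK-N-AS, and 2.55% and 6.98% with siRNA. Among markers fixed as lists, 9 of 10 adrenergic (sympathetic neuroblast) genes were tested in SK-N-SH CRISPRi, and all 9 fell. Their summed level was 878 to 917 CPM in knockdown and 2463 to 2589 CPM in control libraries. Of 10 mesenchymal genes, 7 rose there and 2, TWIST1 and FOSL1, fell (11010 to 11680 against 5984 to 6869 CPM). FN1 (5609 CPM in knockdown, 2467 CPM in control) and VIM (3969 and 2768 CPM) made up most of that sum. In SK-N-AS 6 of 10 adrenergic genes fell (1509 to 1591 against 1813 to 1895 CPM), and 7 mesenchymal genes rose while 2 fell (2921 to 3001 against 2653 to 2708 CPM). With siRNA 2 adrenergic genes rose (3071 to 3301 against 2936 to 3184 CPM) and 5 mesenchymal genes fell (2318 to 2618 against 2883 to 3103 CPM). TH, which makes catecholamines, was under 1 CPM in all 3 experiments although the labels name neuroblastoma lines. Of the 8 fibroblast and smooth muscle genes, 7 were tested in SK-N-SH CRISPRi, and all 7 rose (2375 to 2442 against 1346 to 1480 CPM). From that list 4 rose and 2 fell in SK-N-AS (1411 to 1478 against 1192 to 1237 CPM). With siRNA 3 rose and 1 fell (493 to 557.7 against 473.7 to 512.8 CPM). Schwann and endothelial lists summed to at most 5.63 CPM in any library, with SOX10 at 0 or under 1 CPM throughout. The epithelial list summed to 158 to 166 CPM in SK-N-SH CRISPRi knockdown and 78.9 to 86.4 CPM in its controls. KRT18 (140 and 73.2 CPM) and KRT8 (21.2 and 8.94 CPM) carried that sum, while CDH1, EPCAM, KRT19 and KRT5 stayed under 1 CPM there. The blood list reached 437 to 562 CPM in SK-N-AS, where PTPRC carried it (451 CPM in knockdown, 542 CPM in control). In bulk RNA, fewer cells of a type and less RNA per cell cannot be told apart, and the part of these marker changes in the Wnt results was not tested.

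Of the 46 members, 31 had enough reads to be tested in at least 1 experiment and 22 in all 3. Levels of different genes are compared here per length, as RPKM (CPM divided by gene length in kilobases), with means and SD over the control libraries. DKK3 was the highest member in SK-N-SH, at 122 ± 5.64 RPKM in the siRNA controls and 97.4 ± 6.2 RPKM in the CRISPRi controls. In SK-N-AS the R-spondin receptor LGR5 was highest, at 60.3 ± 0.89 RPKM, above DKK1 at 45.2 ± 0.75 RPKM and SFRP1 at 31.2 ± 0.464 RPKM. Each line therefore expressed at least 1 secreted antagonist above every ligand. The highest ligand was WNT5A in SK-N-SH (5.67 ± 0.218 RPKM in the siRNA and 6.8 ± 0.492 RPKM in the CRISPRi controls) and WNT3 in SK-N-AS (5.21 ± 0.15 RPKM). Among Frizzled receptors, which hand the signal to Dishevelled proteins inside the cell, FZD6, FZD7 and FZD2 led in the siRNA controls at 19.3 ± 1.27, 16.2 ± 0.906 and 13.5 ± 1.01 RPKM, and FZD3 (3.57 ± 0.192 RPKM) and FZD1 (3.47 ± 0.138 RPKM) did not differ beyond their spread. In SK-N-SH CRISPRi controls the order was FZD7 at 19.3 ± 1.38, FZD2 at 17 ± 1.03 and FZD6 at 9.8 ± 0.212 RPKM, and the gap between FZD7 and FZD2 was under 2 SD of FZD7. In SK-N-AS FZD2 stood alone at 25.5 ± 0.804 RPKM, followed by FZD7 at 4.2 ± 0.132 RPKM. The 3 experiments were counted in separate tables and may differ in library preparation, so levels in different tables were not tested against each other.

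**Figure D1:**
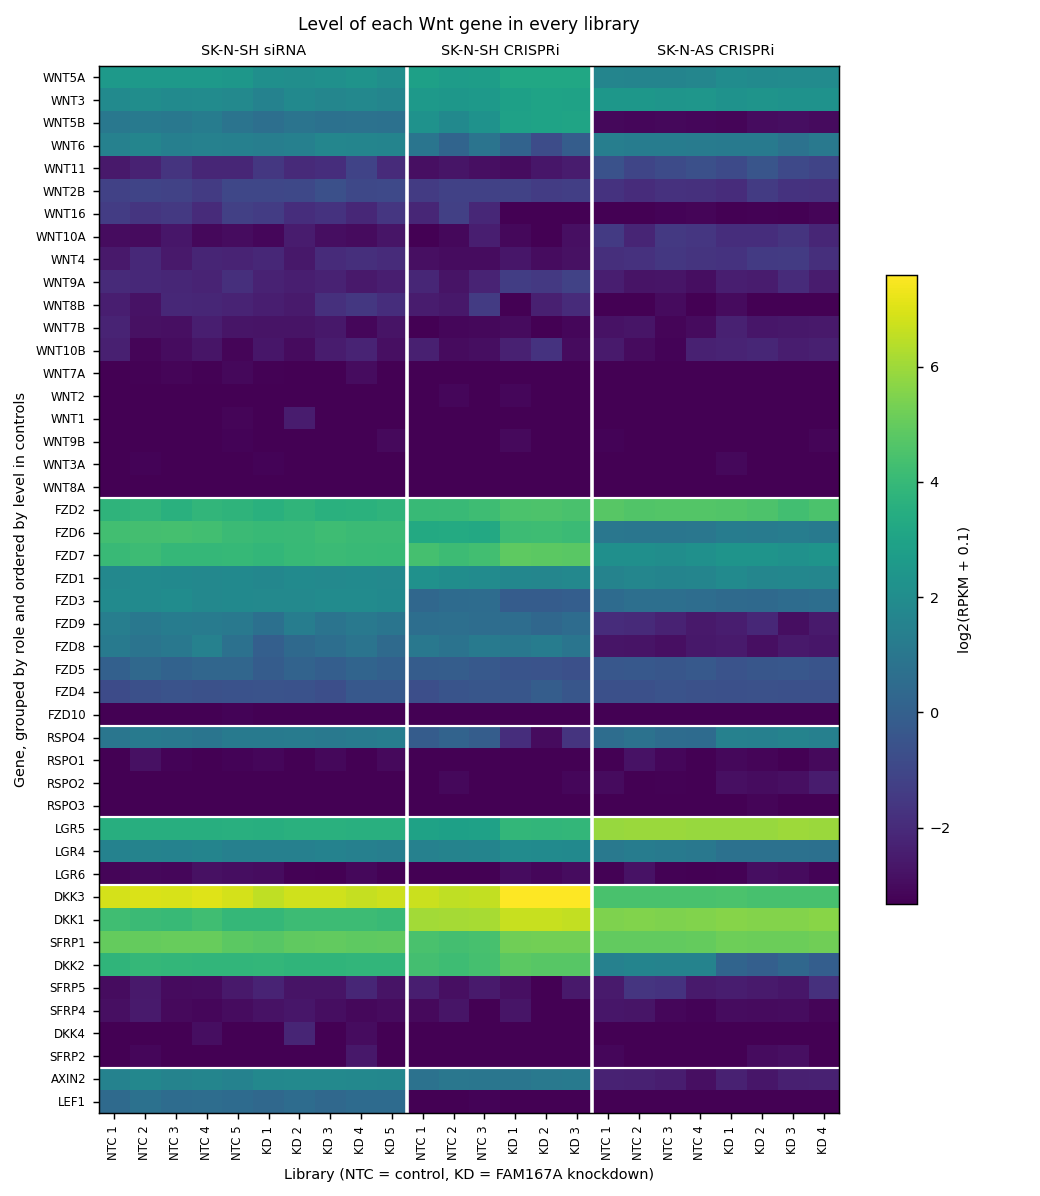
Level of all 46 Wnt genes in each of the 24 libraries, as log2(RPKM + 0.1) on the colour scale, with genes in rows grouped by role (white lines) and libraries in columns grouped by experiment. DKK3 is brightest in SK-N-SH, LGR5 in SK-N-AS, and LEF1 stands clearly above the floor only in the siRNA libraries.

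In SK-N-SH CRISPRi, 13 of the 23 tested members rose and 5 fell (edgeR's quasi-likelihood test, Benjamini-Hochberg adjusted p under 0.05), where 27.7% of all tested genes rose and 28% fell. The median log2 fold change of the tested members was 0.39, against -0.0068 over all tested genes. In SK-N-AS CRISPRi 8 of 27 tested members rose and 4 fell, where 15.2% and 15.5% of all genes did, and the medians were 0.08 for members and -0.0024 for all genes. With siRNA 2 of 30 tested members rose and 6 fell, where 2.55% and 6.98% of all genes did, and the medians were -0.05 and 0.0085. Without knockdown libraries 3 and 4, the 6 members that fell with siRNA were still called, with log2 fold changes of -0.46 for WNT5A, -0.33 for WNT5B, -0.26 for WNT3, -0.20 for FZD6, -0.86 for FZD8 and -0.23 for DKK3. With control library 5 left out as well, these values were -0.48, -0.38, -0.28, -0.24, -0.93 and -0.25, each called, while AXIN2 and WNT2B lost their calls in both cases (adjusted p = 0.114 and 0.209, then 0.132 and 0.0751, edgeR). Filtering on low counts means that these shares cover only members with reads. In all, 22 members were called in at least 1 experiment, and WNT3, WNT5A and FZD6 in all 3, none of them in 1 direction throughout.

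**Figure D2:**
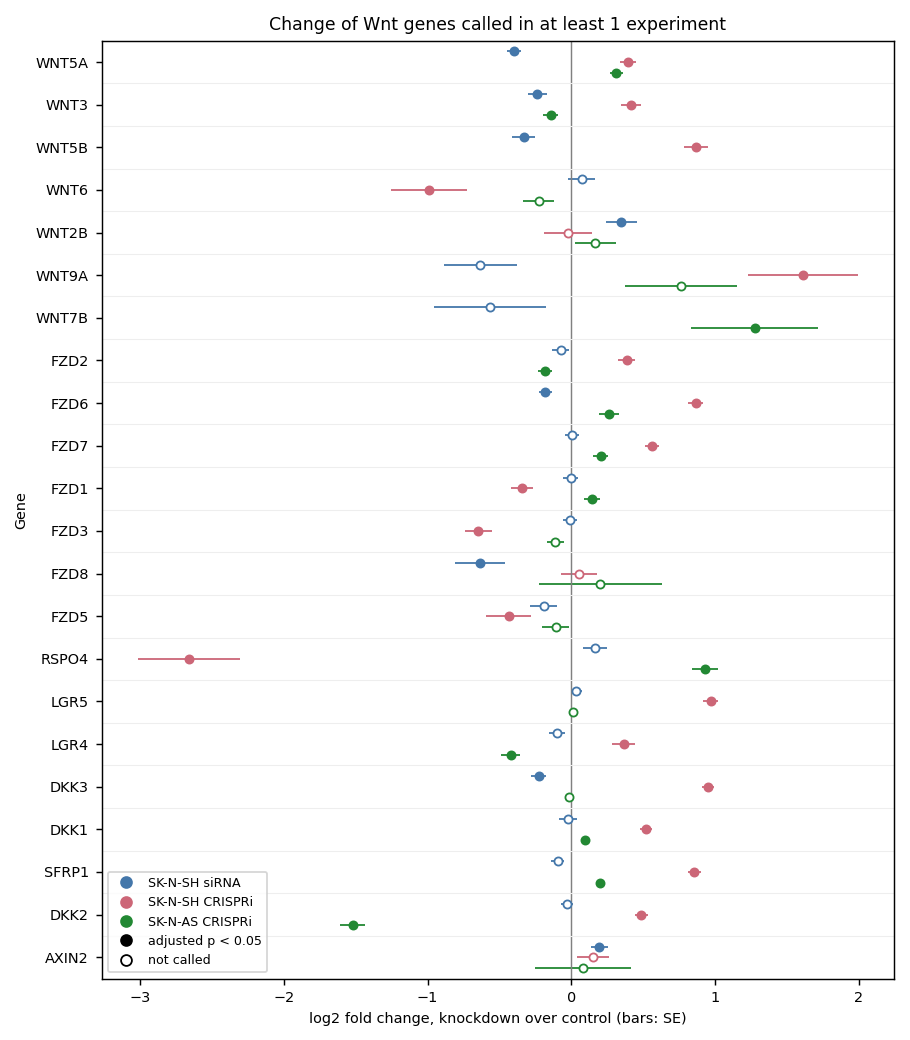
Log2 fold change (knockdown over control) with its SE for the 22 members called in at least 1 experiment, coloured by experiment, filled where the adjusted p is under 0.05. Antagonists and LGR5 lie to the right in SK-N-SH CRISPRi, RSPO4 lies far left there and right in SK-N-AS, and most siRNA points lie near 0.

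Among the ligands, WNT5A, the main ligand of beta-catenin-independent signalling, fell with siRNA and rose in both CRISPRi experiments. The siRNA controls held 43.3, 42.1, 42.1, 43 and 39.2 CPM of WNT5A and the knockdown libraries 31.1, 30.4, 32.6, 34.8 and 30 CPM. In SK-N-SH CRISPRi the controls held 54.2, 47 and 49.6 CPM and the knockdown libraries 66.5, 65.9 and 65 CPM. In SK-N-AS the controls held 22.3, 21.9, 21.6 and 23.1 CPM and the knockdown libraries 28.7, 26.6, 27.9 and 27.4 CPM. The groups did not overlap in any of the 3 experiments. The log2 fold changes were -0.40 ± 0.05 (SE; adjusted p = 3.64e-06, edgeR), 0.39 ± 0.05 (adjusted p = 1.09e-07) and 0.31 ± 0.05 (adjusted p = 2.15e-06). WNT5A spans positions 55465715 to 55490539 of chromosome 3 (GRCh38, minus strand).

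WNT5B, its close relative, fell with siRNA and rose in SK-N-SH CRISPRi, and was barely present in SK-N-AS. Control libraries held 8.47, 9.23, 8.56, 9.72 and 7.37 CPM and siRNA libraries 6.44, 7.49, 6.8, 7.01 and 6.76 CPM, with 1 knockdown value above the lowest control (log2 fold change -0.33 ± 0.08, adjusted p = 0.009, edgeR). In SK-N-SH CRISPRi the controls held 20, 15.1 and 20.1 CPM and the knockdown libraries 32.4, 33.8 and 34.8 CPM, with no overlap (0.87 ± 0.08, adjusted p = 9.99e-11). In SK-N-AS no library exceeded 0.146 CPM. WNT3, a ligand of the beta-catenin pathway, fell with siRNA from 15.9 ± 0.779 to 13.5 ± 1.2 CPM (n = 5, log2 fold change -0.24 ± 0.07, adjusted p = 0.0226, edgeR), with groups that met at 15 CPM. It rose in SK-N-SH CRISPRi from 25.4, 23.2 and 25.5 to 31.5, 34.4 and 33.3 CPM (0.42 ± 0.07), and was lower in SK-N-AS at 19.9, 21.4, 20.1 and 20.2 CPM against 23.1, 23.1, 21.7 and 22.5 CPM (-0.14 ± 0.05, adjusted p = 0.0263). The SK-N-SH CRISPRi change stood in every alternative. The siRNA call was lost on leaving out knockdown library 1 or either of control libraries 2 and 4, and the SK-N-AS call without any of knockdown libraries 1, 3 and 4 or control libraries 1 and 4.

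WNT6, also a ligand of the beta-catenin pathway, fell in SK-N-SH CRISPRi, from 3.06, 1.78 and 2.95 CPM in controls to 1.7, 0.81 and 1.41 CPM (log2 fold change -0.99 ± 0.27, adjusted p = 0.00172, edgeR). The highest knockdown value lay just under the lowest control. WNT6 passed the threshold in neither other experiment, with log2 fold changes of 0.07 ± 0.09 with siRNA and -0.23 ± 0.11 in SK-N-AS. WNT9A rose in SK-N-SH CRISPRi from 0.496, 0.198 and 0.441 to 1.18, 1.01 and 1.34 CPM, on 19 control and 54 knockdown reads (1.61 ± 0.38, adjusted p = 0.000476). WNT2B was higher with siRNA, at 5.02, 5.2, 6.62, 5.27 and 5.35 CPM against 4.23, 4.7, 4.33, 3.36 and 4.95 CPM (0.35 ± 0.11, adjusted p = 0.0412). That call was lost without knockdown libraries 3 and 4, and without any of knockdown libraries 2 to 5 or control libraries 1, 3 and 4 alone. WNT7B rose in SK-N-AS on 110 knockdown and 36 control reads (1.28 ± 0.44, adjusted p = 0.0267), from 0.166 ± 0.0962 to 0.37 ± 0.101 CPM, and the call was lost under DESeq2 and on leaving out knockdown library 1 or either of control libraries 3 and 4. WNT7B stayed under 1 CPM in every library there, so a 1 CPM filter left it untested. Each of its counts was even, so fewer separate reads than counts may stand behind the call.

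WNT16 had 5, 16 and 10 reads in the SK-N-SH CRISPRi controls and 0 in each knockdown library, which is at least 9.47-fold lower when 3 reads over the knockdown group are taken as the floor. It had too few reads to be tested in that experiment alone. With siRNA it had 276 reads in knockdown and 299 in control libraries (log2 fold change -0.25 ± 0.24, adjusted p = 0.603, edgeR), and SK-N-AS held 8 reads in all. WNT10A, WNT10B, WNT11, WNT4 and WNT8B were tested in at least 1 experiment and called in none. Some ligand genes are neighbours: WNT3 lies 47 bases from WNT9B, which had at most 8 reads in any experiment, and WNT6 lies 6619 bases from WNT10A, which stayed under 1 CPM in every library.

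Among the receptors, FZD6, FZD7 and FZD2 rose in SK-N-SH CRISPRi while FZD3, FZD1 and FZD5 fell. FZD6, which acts mainly in cell polarity, had 39.9, 40.6 and 38.9 CPM in the controls and 72.2, 74.4 and 70.8 CPM in the knockdown libraries (log2 fold change 0.87 ± 0.05, adjusted p = 8.89e-17, edgeR). In SK-N-AS it went from 7.82, 7.56, 7.56 and 7.72 to 9.39, 9.12, 9.52 and 8.85 CPM (0.26 ± 0.07, adjusted p = 0.00341), again with no overlap. With siRNA it was lower, at 65.7, 68.4, 73, 69 and 70.3 CPM against 78.8, 79.8, 84, 79.6 and 70 CPM (-0.18 ± 0.05, adjusted p = 0.0135). Control library 5 lay among the knockdown libraries there, and the call was lost without control library 3.

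FZD7, a receptor of both Wnt branches, rose in SK-N-SH CRISPRi from 79.7, 69.1 and 74.5 to 112, 110 and 107 CPM (log2 fold change 0.56 ± 0.05) and in SK-N-AS from 16.1, 16.5, 15.5 and 16.7 to 19.1, 19.1, 17.4 and 18.8 CPM (0.20 ± 0.05, adjusted p = 0.00389, edgeR). Its siRNA value was 0.00 ± 0.05. FZD2 rose in SK-N-SH CRISPRi from 34.1, 35.6 and 38.4 to 46.8, 49.1 and 46.2 CPM (0.39 ± 0.06). It fell in SK-N-AS, where it is the leading receptor, from 56, 51.9, 53.3 and 53.9 to 52.2, 48.7, 40.9 and 47.5 CPM (-0.18 ± 0.05, adjusted p = 0.00474), and 1 knockdown library lay above the lowest control. FZD1 fell in SK-N-SH CRISPRi from 31.1, 27.9 and 25.9 to 22, 21.5 and 22.8 CPM (-0.34 ± 0.08) and was slightly higher in SK-N-AS, at 22.6 ± 1.53 against 20.6 ± 0.847 CPM (n = 4, 0.14 ± 0.05, adjusted p = 0.0417, edgeR). The SK-N-AS call of FZD1 was lost under DESeq2, with no count filter, and on leaving out knockdown library 1 or either of control libraries 1 and 3.

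FZD3, the polarity receptor used in axon growth, fell in SK-N-SH CRISPRi from 16, 18.1 and 18.3 to 10.9, 10.9 and 11.9 CPM (log2 fold change -0.65 ± 0.09, adjusted p = 2.76e-07, edgeR), with values of -0.01 ± 0.05 with siRNA and -0.11 ± 0.06 in SK-N-AS. FZD5 fell in SK-N-SH CRISPRi from 5.26 ± 0.357 to 3.85 ± 0.309 CPM (n = 3, -0.44 ± 0.16, adjusted p = 0.0166, edgeR), a call lost under DESeq2 and without knockdown library 3. FZD8 fell with siRNA, at 3.59, 4.85, 5.79, 6.99 and 5.03 CPM against 8.62, 7.08, 7.89, 10.7 and 6.33 CPM (-0.63 ± 0.17, adjusted p = 0.041). The FZD8 groups overlapped by 1 knockdown library, and the call was lost without any of knockdown libraries 2, 3 and 5 or control libraries 1 to 4. FZD4 and FZD9 were tested in all 3 experiments and called in none.

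RSPO4, the one R-spondin with more than traces of RNA, fell in SK-N-SH CRISPRi and rose in SK-N-AS. In SK-N-SH the controls held 2.15, 2.77 and 2.25 CPM (26, 42 and 51 reads) and the knockdown libraries 0.458, 0.0675 and 0.575 CPM (7, 1 and 9 reads). In SK-N-AS the controls held 3.71, 4.4, 3.63 and 3.58 CPM and the knockdown libraries 7.16, 7.12, 7.58 and 6.92 CPM. Neither experiment had an overlap, and knockdown was low in the former and high in the latter. The log2 fold changes were -2.66 ± 0.36 (6.32-fold lower, adjusted p = 5.11e-08, edgeR) and 0.93 ± 0.09 (1.91-fold higher, adjusted p = 1.79e-10). Over the alternatives the SK-N-SH value ranged from -3.13 to -2.19. With siRNA RSPO4 did not pass the threshold, at 5.81, 6.05, 5.54, 5.96 and 6.45 CPM against 4.99, 5.75, 5.37, 4.83 and 5.67 CPM (0.16 ± 0.08, adjusted p = 0.261). RSPO4 spans positions 958452 to 1002311 of chromosome 20 (GRCh38), and its upstream sequence is the first of those printed above. RSPO1, RSPO2 and RSPO3 had at most 60 reads in any experiment.

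LGR5, a receptor for R-spondins and a stem cell marker in several epithelia, rose in SK-N-SH CRISPRi from 40.5, 38.2 and 39.1 to 77.2, 75.5 and 77.8 CPM. The log2 fold change was 0.97 ± 0.05 (adjusted p = 2.05e-18, edgeR). In SK-N-AS, where LGR5 was most abundant, the controls held 314, 318, 323 and 313 CPM and the knockdown libraries 312, 316, 328 and 322 CPM (0.01 ± 0.02, adjusted p = 0.75). With siRNA the range was 60.3 to 62.9 CPM against 59 to 61.9 CPM (0.03 ± 0.04). LGR4, the more widely expressed receptor of the family, rose in SK-N-SH CRISPRi from 17.1, 18 and 18.3 to 24, 23.1 and 22 CPM (0.36 ± 0.08, adjusted p = 0.000174). It fell in SK-N-AS from 12.8, 14.6, 13.7 and 12.3 to 9.96, 9.99, 9.99 and 9.68 CPM (-0.42 ± 0.07, adjusted p = 3.01e-06), and its siRNA value was -0.10 ± 0.06 (adjusted p = 0.314). Thus in SK-N-SH CRISPRi both tested receptors were higher and the ligand RSPO4 lower, and in SK-N-AS RSPO4 was higher, LGR4 lower and LGR5 not called.

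**Figure D3:**
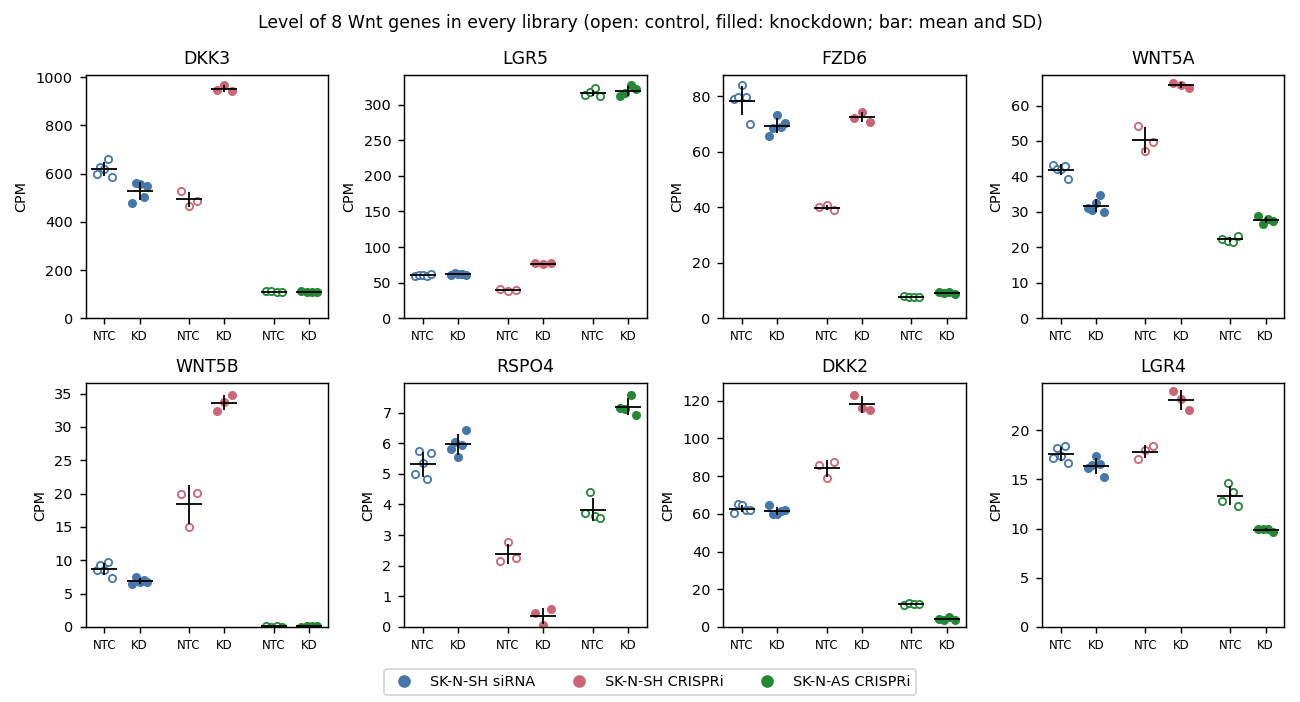
CPM of 8 Wnt genes in every library, with open points for controls and filled points for knockdown, and bars for the mean and SD. DKK3, LGR5, FZD6, WNT5B, DKK2 and LGR4 are higher in all 3 SK-N-SH CRISPRi knockdown libraries than in their controls, while RSPO4 falls there and rises in SK-N-AS, where DKK2 and LGR4 fall.

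All 4 tested antagonists rose in SK-N-SH CRISPRi. DKK3 went from 526, 464 and 487 to 945, 968 and 941 CPM (log2 fold change 0.95 ± 0.04, adjusted p = 2.61e-21, edgeR), SFRP1 from 104, 95.6 and 101 to 178, 183 and 184 CPM (0.86 ± 0.04), DKK1 from 148, 152 and 157 to 223, 222 and 212 CPM (0.52 ± 0.04), and DKK2 from 85.8, 79 and 87.5 to 123, 116 and 115 CPM (0.49 ± 0.05). None of the 4 had overlapping groups, but neither did FZD4 and FZD9, which were not called there (adjusted p = 0.16 and 0.537, edgeR). The share of all genes without overlap was not counted, so nothing is read from this. Each of the 4 kept its call in all alternatives. The sum of the mesenchymal list, mostly FN1 and VIM, rose in the same libraries, and its part in these rises was not tested. In SK-N-AS the 4 went apart. DKK2 fell from 11.5, 12.7, 12.2 and 12.1 to 4.49, 3.79, 5.03 and 3.64 CPM (-1.52 ± 0.09, 2.87-fold lower, adjusted p = 1.78e-16), while SFRP1 rose from 150, 146, 147 and 150 to 172, 164, 168 and 177 CPM (0.20 ± 0.03, adjusted p = 8.27e-07). DKK1 was higher by 0.10 ± 0.03 on the log2 scale (106 ± 2.89 against 99.6 ± 1.65 CPM, n = 4, adjusted p = 0.0166, edgeR), a call lost with no count filter, without knockdown library 4 and without control library 3. DKK3 had -0.01 ± 0.03 (adjusted p = 0.763).

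With siRNA DKK3 was the one antagonist called, and in the opposite direction to SK-N-SH CRISPRi. The controls held 600, 629, 618, 661 and 586 CPM and the knockdown libraries 476, 560, 555, 505 and 547 CPM, with no overlap (log2 fold change -0.23 ± 0.05, adjusted p = 0.00355, edgeR). Over the alternatives, including those without knockdown libraries 3 and 4 and control library 5, it ranged from -0.25 to -0.19 and stayed called. SFRP1, DKK1 and DKK2 had -0.09 ± 0.05, -0.02 ± 0.06 and -0.03 ± 0.04. DKK4, SFRP2, SFRP4 and SFRP5 had too few reads to test in any experiment.

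AXIN2, a scaffold of the beta-catenin destruction complex and a target gene of the pathway, was called in 1 experiment only. With siRNA it stood at 17.3, 18.1, 17.6, 17.3 and 16.5 CPM against 14.3, 16.7, 14.8, 15.8 and 14.2 CPM (log2 fold change 0.19 ± 0.06, adjusted p = 0.0383, edgeR), with groups that met at 16.5 to 16.7 CPM. The call was lost in 12 of 18 alternatives, among them the fit without knockdown libraries 3 and 4. In SK-N-SH CRISPRi AXIN2 was 0.15 ± 0.11 higher on the log2 scale (adjusted p = 0.263), and in SK-N-AS, where it averaged 0.46 CPM in knockdown libraries, it was 0.08 ± 0.33 higher (adjusted p = 0.895).

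LEF1, a DNA-binding partner of beta-catenin, was present in the siRNA experiment and all but absent from the others. The siRNA libraries held 6.33, 7.24, 6.27, 7.05 and 6.99 CPM in knockdown and 6.76, 8.55, 7.17, 7.49 and 6.98 CPM in controls (log2 fold change -0.13 ± 0.08, adjusted p = 0.406, edgeR). The 6 SK-N-SH CRISPRi libraries held 1 LEF1 read among 95702145. The 8 SK-N-AS libraries held 0 among 545725292, which allows up to 0.0055 CPM by the 3-count floor (counting error only). That floor takes every count as a separate read. With 89.6% of low counts even in SK-N-AS, this may not hold, and the bound may be too low. SK-N-SH cells thus had LEF1 reads in all 10 siRNA-experiment libraries and in 1 of 6 CRISPRi libraries, and culture, repressor and library preparation cannot be told apart between these tables. LEF1 spans positions 108047545 to 108168956 of chromosome 4 (GRCh38).

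The responses themselves were compared by an interaction term in a model over 2 experiments at a time. Between SK-N-SH CRISPRi and siRNA, 18 of 33 tested members differed (13 higher and 5 lower with CRISPRi), where 31.4% of all genes differed. WNT9A, on few reads, had the largest positive difference of these members at 2.25 ± 0.49 on the log2 scale, followed by WNT5B at 1.19 ± 0.13, DKK3 at 1.17 ± 0.08 and FZD6 at 1.03 ± 0.08. SFRP1 (0.94 ± 0.07), LGR5 (0.92 ± 0.06) and WNT5A (0.78 ± 0.08) also differed, and RSPO4 was lower by -2.85 ± 0.33. Knockdown method, depth of knockdown, state of the control cells and possibly library preparation differ together here and cannot be told apart. In siRNA and CRISPRi controls the adrenergic list summed to 2936 to 3184 and 2463 to 2589 CPM. The mesenchymal list summed to 2883 to 3103 and 5984 to 6869 CPM. For the fibroblast and smooth muscle list these sums were 473.7 to 512.8 and 1346 to 1480 CPM. Such levels were not tested against each other.

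Between SK-N-SH and SK-N-AS CRISPRi, 15 of 30 tested members differed (10 higher and 5 lower in SK-N-SH), where 30.7% of all genes differed. The members called in opposite directions were RSPO4 (difference -3.59 ± 0.34, adjusted p = 2.6e-12, edgeR), DKK2 (2.03 ± 0.09, adjusted p = 3.57e-23), LGR4 (0.80 ± 0.11), FZD2 (0.58 ± 0.09), WNT3 (0.57 ± 0.09) and FZD1 (-0.47 ± 0.10). DKK3 (0.98 ± 0.05), LGR5 (0.97 ± 0.05), SFRP1 (0.67 ± 0.05), FZD6 (0.62 ± 0.08), DKK1 (0.44 ± 0.05) and FZD7 (0.37 ± 0.07) had the higher response in SK-N-SH, and FZD3 (-0.52 ± 0.11) the lower. For WNT5A the difference was 0.09 ± 0.07 (adjusted p = 0.391), so its rises in the CRISPRi experiments were not distinguished. WNT6 (-0.76 ± 0.28, adjusted p = 0.0371) and WNT16 (adjusted p = 0.0212) were lost in 6 alternatives each, all of them with 1 library left out. WNT16 had too few reads to be tested in either experiment alone, with 8 reads in all of SK-N-AS. Its place among the 15 rests on the SK-N-SH control reads, so no difference in response is read from it. FAM167A was left at 1.33% of its control level in SK-N-SH CRISPRi and at 10.7% in SK-N-AS CRISPRi. Cell line, depth of knockdown and possibly library preparation differ together between these experiments and cannot be told apart. The comparisons with siRNA and with SK-N-AS share the SK-N-SH CRISPRi libraries, so they are not independent of each other.

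Other pathway genes, taken from 7 lists of 84 genes, moved in the same experiments. In SK-N-SH CRISPRi 27 of 66 tested genes rose and 19 fell, in SK-N-AS 16 of 70 rose and 23 fell, and with siRNA 1 of 73 rose and 13 fell, beside the background shares given above. Of the genes for ligand lipidation, release and inactivation, 3 of 5 tested fell with siRNA, 1 of 4 rose and 1 fell in SK-N-SH CRISPRi, and 4 of 5 rose in SK-N-AS. WLS, which carries Wnt proteins to the cell surface, had log2 fold changes of -0.37 ± 0.04 with siRNA, 0.69 ± 0.04 in SK-N-SH CRISPRi and 0.16 ± 0.03 in SK-N-AS, each called. NOTUM, an enzyme that removes the lipid from Wnt proteins and a target gene, fell by 0.57 ± 0.11 and 0.97 ± 0.24 in the SK-N-SH experiments and rose by 1.44 ± 0.07 in SK-N-AS, from 8.82 to 23.9 CPM. TRABD2B, a protease that inactivates Wnt proteins, rose by 1.37 ± 0.09 in SK-N-AS, and TRABD2A by 0.63 ± 0.09, after -0.49 ± 0.12 with siRNA.

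Of the other secreted modulators, all 3 tested rose in SK-N-SH CRISPRi, and 1 of 5 rose and 2 fell in SK-N-AS. IGFBP4, an IGF-binding protein that also binds LRP6, rose by 0.97 ± 0.04 in SK-N-SH CRISPRi and by 0.19 ± 0.03 in SK-N-AS. SOSTDC1, a binder of LRP6 and BMPs, went from 0.35 ± 0.10 in SK-N-SH CRISPRi to -1.13 ± 0.06 in SK-N-AS, and FRZB, a relative of the SFRP proteins, from 0.32 ± 0.11 to -0.45 ± 0.09. Like DKK2, the latter 2 were called up in SK-N-SH CRISPRi and down in SK-N-AS, and their differences were not tested. Among co-receptors and other surface receptors 7 of 14 rose and 3 fell in SK-N-SH CRISPRi, 6 of 14 rose and 6 fell in SK-N-AS, and 1 of 14 rose and 3 fell with siRNA. LRP6 rose by 0.28 ± 0.05 and 0.09 ± 0.04 in the CRISPRi experiments and had -0.01 ± 0.04 with siRNA, and LRP5 had -0.01 ± 0.05, 0.06 ± 0.05 and, called, -0.10 ± 0.03. ROR2, the WNT5A co-receptor, fell by 1.73 ± 0.11 in SK-N-SH CRISPRi, from 17.3 to 5.23 CPM, and rose by 0.55 ± 0.06 in SK-N-AS. GPC3, a glypican that binds Wnt proteins, rose by 0.35 ± 0.10 with siRNA and 1.47 ± 0.05 in SK-N-SH CRISPRi and had -0.65 ± 0.05 in SK-N-AS. GPC4, its relative, had -1.28 ± 0.35, 2.45 ± 0.29 and 0.74 ± 0.24, KREMEN1, a DKK receptor, -0.36 ± 0.05, 0.18 ± 0.06 and 0.23 ± 0.04, each called, and RECK, which with ADGRA2 serves WNT7 ligands, rose by 0.54 ± 0.06 and 0.51 ± 0.06 in the CRISPRi experiments.

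In the cytoplasmic relay 4 of 14 tested genes were called in each CRISPRi experiment (1 up and 3 down in both) and 1 of 14, downward, with siRNA. CTNNB1, which encodes beta-catenin, passed the threshold in none, at 0.02 ± 0.04, 0.04 ± 0.04 and 0.04 ± 0.03. APC2, a neural form of the destruction-complex scaffold, fell by 1.79 ± 0.06 in SK-N-SH CRISPRi, AMER1, which binds APC, by 0.68 ± 0.09, and the kinase gene GSK3A by 0.15 ± 0.05 there and 0.15 ± 0.04 in SK-N-AS. The kinase gene CSNK1A1 fell by 0.28 ± 0.04 with siRNA and rose by 0.11 ± 0.04 in SK-N-SH CRISPRi, where it was the 1 relay gene called up, and in SK-N-AS CSNK1D had -0.09 ± 0.03 and GSK3B 0.09 ± 0.03, both called. Of 12 nuclear partners 8 rose and 3 fell in SK-N-SH CRISPRi, 2 rose and 6 fell in SK-N-AS, and 4 fell with siRNA. TCF7, a DNA-binding partner of beta-catenin, fell in SK-N-SH CRISPRi, from 44.5 to 12.9 CPM (-1.78 ± 0.08), and in SK-N-AS, where it stood at 7.3 CPM in control and 5.74 CPM in knockdown libraries (-0.35 ± 0.08). TCF7L1, mostly a repressor of the family, had -0.37 ± 0.08 with siRNA, 0.99 ± 0.10 in SK-N-SH CRISPRi and -0.30 ± 0.06 in SK-N-AS, each called, and TCF7L2 0.13 ± 0.07 (not called), 0.59 ± 0.09 and -0.11 ± 0.03. With LEF1 at or near 0, TCF7L2 at 107 CPM was the highest of the 4 factors in SK-N-AS controls and TCF7 at 44.5 CPM in SK-N-SH CRISPRi controls, in reads not divided by length. TLE3, a co-repressor, fell by 1.18 ± 0.05 and 0.32 ± 0.04 in the CRISPRi experiments, its relative TLE1 rose by 0.41 ± 0.09 and 0.37 ± 0.06 in them, and the co-activator BCL9L had -0.46 ± 0.06, 0.82 ± 0.05 and 0.11 ± 0.03, each called. Its relative BCL9 had -0.20 ± 0.04, 0.28 ± 0.05 and -0.09 ± 0.03, each called. PYGO2, which binds the BCL9 proteins, had 0.06 ± 0.04 (not called) with siRNA, 0.23 ± 0.05 in SK-N-SH CRISPRi and -0.17 ± 0.03 in SK-N-AS.

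Of the feedback and target genes outside the members, 7 of 9 tested fell and 1 rose in SK-N-SH CRISPRi, 4 of 9 fell and 2 rose in SK-N-AS, and 1 of 10 fell with siRNA. Of all genes, 28%, 15.5% and 6.98% fell in these experiments, and 27.7%, 15.2% and 2.55% rose. The riser in SK-N-SH CRISPRi was TNFRSF19 (0.73 ± 0.13), and the fallers included small changes of CCND1 (-0.13 ± 0.04) and ZNRF3 (-0.31 ± 0.07). TCF7, NOTUM and ZNRF3 were counted in other lists as well. NKD1, a feedback inhibitor, fell by 1.80 ± 0.14 in SK-N-SH CRISPRi, from 10.1 to 2.87 CPM, with 0.02 ± 0.07 with siRNA and 0.63 ± 0.31 (not called) in SK-N-AS, while NKD2 had at most 24 reads in any group. MYC fell by 1.03 ± 0.06 and 0.34 ± 0.03 in the CRISPRi experiments, BAMBI, a decoy receptor for TGF-beta ligands, by 1.68 ± 0.13 in SK-N-SH CRISPRi (with a rise of 0.47 ± 0.05 in SK-N-AS), and the homeobox gene CDX1 by 1.42 ± 0.16 in SK-N-AS. AXIN2, also a target gene, was not called in either experiment. Planar polarity genes were called in 11 of 13 cases in SK-N-SH CRISPRi (6 up, 5 down), in 5 of 14 in SK-N-AS (1 up, 4 down) and in 2 of 15 with siRNA (both down). PRICKLE1 fell by 2.58 ± 0.16 and 0.66 ± 0.12 in the CRISPRi experiments. Of the cadherin-type receptor genes, CELSR2 fell by 0.85 ± 0.06 in SK-N-SH CRISPRi and 0.32 ± 0.08 in SK-N-AS, CELSR3 by 0.55 ± 0.05 and 0.23 ± 0.04, and CELSR1 by 0.34 ± 0.06 with siRNA. The scaffold gene SCRIB fell by 0.17 ± 0.04 in SK-N-SH CRISPRi and 0.22 ± 0.03 in SK-N-AS. VANGL1, a core polarity gene, fell by 0.19 ± 0.05 with siRNA and rose by 0.19 ± 0.06 in SK-N-SH CRISPRi, and NFATC4, a calcium-regulated transcription factor, rose by 0.83 ± 0.07 in SK-N-SH CRISPRi. The adrenergic list fell in the same CRISPRi libraries, and its part in these changes was not tested.

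**Figure D4:**
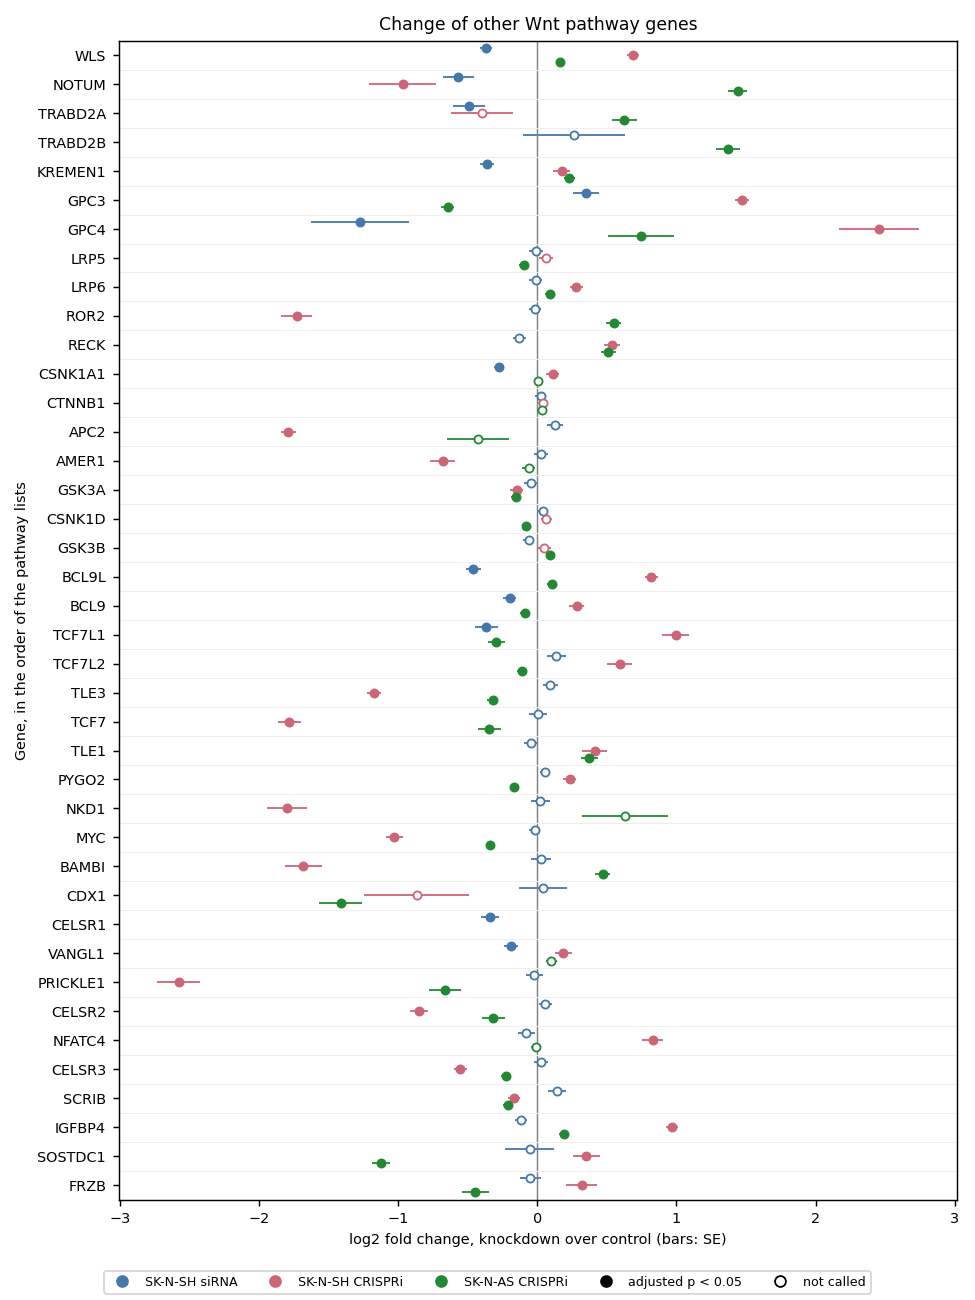
Log2 fold change with its SE for the 40 pathway genes outside the members that were picked by the naming rule and could be tested. Points are coloured by experiment and filled where the adjusted p is under 0.05. CTNNB1 lies at 0 in all 3 experiments, PRICKLE1, NKD1, APC2, TCF7 and ROR2 lie far left in SK-N-SH CRISPRi, and NOTUM and TRABD2B lie right in SK-N-AS.

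The 15 members never tested were RSPO1, RSPO2, RSPO3, LGR6, WNT1, WNT2, WNT3A, WNT7A, WNT8A, WNT9B, FZD10, DKK4, SFRP2, SFRP4 and SFRP5. None had more than 112 reads in an experiment or 30 in a library, and WNT8A had 0 in all 24. Members with no read numbered 4 in the siRNA experiment, 9 in SK-N-SH CRISPRi and 7 in SK-N-AS. The canonical ligands WNT1 and WNT3A were thus at or near 0 in both lines. Another annotated gene overlapped 20 members on the opposite strand, among them DKK3 (USP47), LGR5 (TSPAN8), WNT5B (FBXL14), WNT2B (ST7L), FZD6 (BAALC-AS1) and FZD4 (PRSS23). No label or processing note states the strand setting used for counting, so reads from the shared stretches cannot be assigned with certainty.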

How the data were processed

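RNA was sequenced in 24 libraries of 6 groups, described below in 3 experiments (5 against 5, 3 against 3 and 4 against 4 libraries). The deposited tables hold raw counts, whole numbers of reads per gene and library. Per the submitters' processing notes, bcl2fastq 2.20.0.422 and 2.20, CASAVA, FastQC 0.11.8, STAR 2.6.1d and featureCounts 1.5.1 were used on GRCh38; which served which table, the annotation release, the strand setting and whether reads or read pairs were counted: not given in the sources used here.

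From these counts, each experiment was fitted alone over all its genes in R 4.3.3 with edgeR 4.0.16 (filterByExpr with minimum count 10 and minimum total 15, TMM factors, robust quasi-likelihood fit, two-sided test, Benjamini-Hochberg adjustment over all genes tested). This left 21018, 15391 and 19277 genes. Differences between experiments were tested as an interaction over genes matched by Ensembl identifier. RPKM used the gene length in the siRNA table. Samples were grouped by their titles. The members, pathway lists and marker lists were chosen with earlier results of these data known. Every member called in an experiment or in a difference was named, as were up to 3 called genes of each pathway list per experiment by smallest adjusted p, and TCF7L1, TCF7L2, CTNNB1, LRP5, LRP6, NKD1 and NKD2 whatever their value. TNFRSF19, CCND1 and ZNRF3 were named outside this rule. The alternatives were other scaling factors, count filters, DESeq2 1.42.0, a replicate block and leaving out libraries. The fit was checked on simulated data.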

Additional observations from a re-analysis of the deposited data

Results flagged for a closer look

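In 9 of the 92 groups of 4 or 5 libraries examined, 1 library stood apart from the others, judged against the spread of those others. Where that spread was narrow, as for LGR4, the gap itself was small. Chance gives about 5% of groups, or 1 in 20. In the siRNA experiment these were WNT2B in knockdown library 3 (6.63 CPM, others 5.02 to 5.35), WNT5A in control library 5 (39.2, others 42.1 to 43.3) and WNT6 in control library 2 (5.15, others 4.3 to 4.51). In SK-N-AS they were RSPO4 in control library 2 (4.4 CPM, others 3.58 to 3.71), LGR4 in knockdown library 4 (9.68 on 558 reads, others 9.96 to 9.99) and AXIN2 in knockdown library 2 (0.307 on 32 reads, others 0.492 to 0.52). The rest were WNT6 in knockdown library 3 (2.75, others 3.47 to 3.61), WNT9A in knockdown library 3 (0.62, others 0.307 to 0.357) and DKK3 in knockdown library 1 (113, others 107 to 108).

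The response to knockdown differed between SK-N-SH and SK-N-AS CRISPRi by the interaction test for 15 members. On the log2 scale, SK-N-SH minus SK-N-AS, the differences were 2.03 for DKK2, 0.98 for DKK3, 0.97 for LGR5, 0.80 for LGR4, 0.67 for SFRP1, 0.62 for FZD6, 0.58 for FZD2, 0.57 for WNT3, 0.44 for DKK1 and 0.37 for FZD7, and -3.59 for RSPO4, -0.76 for WNT6, -0.52 for FZD3 and -0.47 for FZD1. WNT16 is counted among the 15 with an adjusted p of 0.0212 (edgeR) and is given without a fold, since its SK-N-SH knockdown libraries held 0 reads. It was tested in neither experiment alone and had 8 reads in all of SK-N-AS, so no difference in response is read from it.

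Between SK-N-SH CRISPRi and siRNA the response differed for 18 members. CRISPRi minus siRNA was 2.25 for WNT9A, 1.19 for WNT5B, 1.17 for DKK3, 1.03 for FZD6, 0.94 for SFRP1, 0.92 for LGR5, 0.78 for WNT5A, 0.65 for WNT3, 0.55 for FZD7, 0.53 for DKK1, 0.51 for DKK2, 0.46 for LGR4 and 0.45 for FZD2. It was -2.85 for RSPO4, -1.08 for WNT6, -0.65 for FZD3 and -0.35 for FZD1, and WNT16 differed with an adjusted p of 9.93e-05 (edgeR). WNT16 had too few reads to be tested in SK-N-SH CRISPRi alone.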

How the results depend on the processing

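No result reversed under any alternative. Of 71 results for single members, 59 kept their call in every alternative that tested them and 12 lost it in at least 1. An alternative whose filter left a member untested was not counted for that member. The losses are given beside the genes above and, for the replicate block, below. The 2 members that rose with siRNA became 1 with no count filter, 0 without knockdown libraries 3 and 4, and 0 without these and control library 5 (both chosen after seeing the data). The 1 other pathway gene that rose with siRNA became 2 with median-of-ratios factors or no count filter, 4 with DESeq2, a 1 CPM filter or upper-quartile factors, and 3 without knockdown libraries 3 and 4 and control library 5. The cause was not tested. DKK1 led the antagonists of SK-N-AS per length, and SFRP1 without division by length. Halving the SK-N-AS counts, also chosen after seeing the data, gave 7 members up and 4 down.

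With 1 library left out at a time, members called with siRNA ranged from 0 to 2 up and 4 to 6 down. In SK-N-SH CRISPRi they were 13 up throughout and 4 to 5 down, and in SK-N-AS 5 to 9 up (5 without control library 3) and 3 to 4 down. Other pathway genes that rose with siRNA ranged from 0 to 4.

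The replicate numbers did not pair the libraries: same-numbered libraries correlated at -0.261 to 0.0721 in the siRNA experiment, -0.0199 to 0.0419 in SK-N-SH CRISPRi and -0.0695 to 0.0666 in SK-N-AS, and 0 of 5, 1 of 3 and 2 of 4 pairs matched best with their own number. With the replicate block, members called were 0 up and 6 down with siRNA, 13 up and 5 down in SK-N-SH CRISPRi, and 7 up and 4 down in SK-N-AS, and the differences numbered 19 and 15. The calls lost under the block were those of AXIN2 and WNT2B with siRNA (adjusted p = 0.0577 and 0.0584, edgeR) and of FZD1 in SK-N-AS (adjusted p = 0.0545). Depth limits WNT16, WNT9A, WNT6 and RSPO4 in SK-N-SH CRISPRi and WNT7B in SK-N-AS, whose values rest on the few reads given above.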
